A study of Mus musculus with 4 samples.

Results

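Described here are 9 of the 48897 genes that the authors listed with a read count. They are the host transcripts of miR-124 and the genes of the axis that this microRNA is known to act on, and they were chosen by name: Mir124a-1hg, Mir124-2hg, Ptbp1, Ptbp2, Rest, Rcor1, Ctdsp1, Ctdsp2 and Ctdspl. The rule uses names and no measured value. The libraries came from retinas of C57BL/6 mice, all labelled as wild type, at postnatal day 9. On postnatal day 3, every left eye had received an intravitreal injection of 0.6 nmol of an antagomir of miR-124-3p in 1 μl (the anti-miR-124 group), and every right eye a scrambled sequence of the same volume and concentration (the NC group). There were 2 libraries of each group. Retinas were mixed, with at least 2 litters in a group according to the labels, and the study calls the libraries of a group biological replicates, without saying which animals went into each. The p-values measure the spread between these libraries. As all treated retinas were left eyes, treatment and side cannot be told apart.

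miR-124 is the most abundant microRNA of neurons, and in mammals it is made from several genomic copies that give the same mature strand. In the textbook account, it represses Ptbp1, a splicing repressor of non-neuronal cells, and when PTBP1 goes down its neuronal paralog PTBP2 goes up, because PTBP1 otherwise makes Ptbp2 mRNA skip an exon and decay. A second arm runs through REST, the zinc-finger repressor that keeps neuronal genes silent outside neurons: miR-124 represses the small C-terminal domain phosphatases (SCPs, encoded by Ctdsp1, Ctdsp2 and Ctdspl) that act with REST, and REST in turn represses the miR-124 genes. RCOR1 (CoREST) is the scaffold that links REST to histone-modifying enzymes. An antagomir binds the mature strand of a microRNA, and that strand was not measured by these libraries, so the counts of the host transcripts do not measure the knockdown.

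In the deposited table, a left-eye and a right-eye column carry the same number. The libraries of one number are called NC-A and anti-A here (pair A) and those of the other NC-B and anti-B (pair B), because the labels do not tell which number is replicate 1. The total counts on genes ran from 16317239 to 18726963 per library. Lens genes (crystallins and membrane proteins of the lens) held 6.72% of the TPM (counts per gene length, scaled to sum to 1000000 in a library) in NC-A and 0.0175% to 0.0236% in the other libraries. Microglia markers summed to 702 TPM in anti-B and to 231 to 283 TPM in the other libraries. Markers of rods and cones, the cells that make up most of the mouse retina, were present in every library, and summed to 8170 to 9200 TPM. This sum hides differences of single markers. By the normalised CPM explained below, 7 of the 12 were lower after the antagomir in both pairs and 3 were higher. The cone genes Opn1sw, Opn1mw, Arr3, Gnat2 and Pde6h were among the 7. Opn1sw was at 207 and 155 TPM in NC-A and anti-A, and at 262 and 119 TPM in NC-B and anti-B. The cause was not tested. Levels of different genes are compared below in TPM. Levels of 1 gene in different libraries are compared in normalised CPM. These are counts per 1000000 counts after TMM normalisation, and transcripts such as those of the lens move them less.

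Hairpins of the miR-124 and miR-26 families lie inside 5 of the genes. The Mir124a-1 hairpin (GRCm38 chr14:64590657-64590741, plus strand) lies in an exon of the 1 annotated Mir124a-1hg transcript that spans it, and no read was counted on its row in any library. How reads over both the hairpin and the host exon were assigned is not given, so this does not show that the stretch had no reads. The Mir124a-2 hairpin (chr3:17795662-17795770, plus strand) is intronic in all 5 spanning Mir124-2hg transcripts. Its row held 81 and 83 counts in NC-A and anti-A and 88 and 102 in NC-B and anti-B. The third copy, Mir124a-3 (chr2:180894040-180894107, plus strand), has no host among the 9 genes and held at most 1 count in a library. Each of the 3 phosphatase genes carries a hairpin of the miR-26 family in an intron. This family is known to repress phosphatases of this group, so its mature strands are shown here to tell the members apart, with the seed (bases 2 to 8) in capitals. They are taken from RefSeq (GRCm38.p6).
miR-26b-5p (intron of Ctdsp1, chr1:74394324-74394344, plus strand): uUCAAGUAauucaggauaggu
miR-26a-5p (intron of Ctdspl, chr9:119031811-119031832, plus strand, and the same 22 bases in an intron of Ctdsp2, chr10:126995543-126995564, plus strand): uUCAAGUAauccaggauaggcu
miR-26b-3p (Ctdsp1): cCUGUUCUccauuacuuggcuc
miR-26a-2-3p (Ctdsp2): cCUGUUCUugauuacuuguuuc
miR-26a-1-3p (Ctdspl): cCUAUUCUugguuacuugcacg
All 5p strands share the seed UCAAGUA, while the 3p strands from Ctdsp1 and Ctdsp2 share CUGUUCU and that from Ctdspl has CUAUUCU. The hairpin rows held 0, 3, 0 and 0 counts for Mir26b, 0, 0, 1 and 1 for Mir26a-2 and 0, 0, 0 and 1 for Mir26a-1, in the order of NC and anti-miR-124 of pair A and then of pair B. Next to the counts of the genes around them, given below, these are few, on rows of 84 to 90 bases. Per length the gap is smaller, as for Mir26b at 6.76 TPM beside Ctdsp1 at 38.0 TPM in anti-A.

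The highest level of the 9 genes was that of Mir124a-1hg, a long non-coding RNA (chr14:64588115-64593961, plus strand). Its TPM was 757 in NC-A and 549 in anti-A, and 729 and 781 in NC-B and anti-B. It ranked 135th of the 17766 genes tested and came first among 1563 long non-coding rows of at least 200 bases in every library, ahead of Malat1, an abundant nuclear RNA. Ptbp2, at 166 to 183 TPM, and Mir124-2hg, at 157 to 174 TPM, followed, and these ranges overlapped, so their order is not fixed by these data. Ptbp1 lay at 98.2 to 130 TPM and Ctdsp2 at 57.9 to 72.6 TPM. Rcor1, at 31.9 to 36.9 TPM, and Ctdsp1, at 28.9 to 39.5 TPM, overlapped. Rcor1 was above Ctdsp1 in both NC libraries and below it in both anti-miR-124 libraries. The lowest levels were those of Rest, at 12.3 to 13.6 TPM, and Ctdspl, at 8.50 to 9.76 TPM. No other neighbours in this order overlapped.

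**Figure D1:**
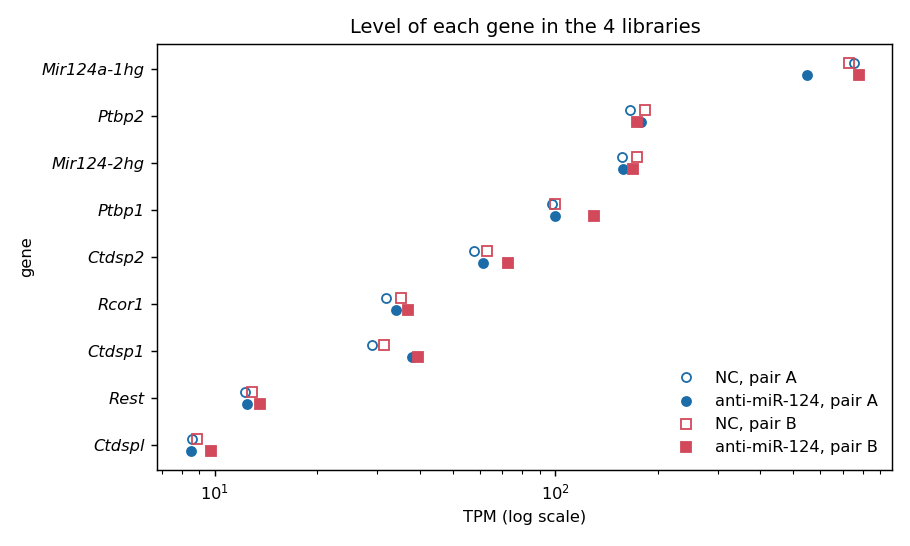
Level of each of the 9 genes in TPM (log scale) in the NC (open) and anti-miR-124 (filled) libraries of pair A (circles) and pair B (squares). Mir124a-1hg sits above all the others at 549 to 781 TPM, Ctdspl lowest at 8.50 to 9.76 TPM, and only Ptbp2 with Mir124-2hg and Rcor1 with Ctdsp1 share a range.

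Whether the levels differed between the groups was asked with the quasi-likelihood test of edgeR. Its filter on low counts kept 17766 genes, all 9 genes among them. After Benjamini-Hochberg adjustment over all of these, 0 of the 9 genes had a p under 0.05, and the share of all genes that did was 0%, the smallest adjusted p being 0.487. At an unadjusted p under 0.05, edgeR's test gave 1 of the 9 genes, Ctdsp1, beside 3.91% of all genes tested in either direction and 2.23% in the higher direction, and 1 gene in a list this short is near that share. DESeq2 gave 0 of the 9 at either threshold and 33 genes in all after adjustment. The cone genes Opn1sw and Gnat2 were among these 33, with an adjusted p by DESeq2 of 4.73e-06 and 0.0297. The median fitted log2 fold change (log2FC, anti-miR-124 against NC) was 0.01 over the 9 genes and 0.001 over all genes tested.

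The 2 pairs were also read apart. The median log2 ratio of the 9 genes was -0.08 in pair A and 0.10 in pair B. Some signs rest on ratios close to 0, such as those of Rcor1 at -0.01 and Ctdsp2 at -0.03 in pair A. The medians over all genes tested were -0.009 and 0.003. Ctdsp1 was higher in both pairs, as were 22.8% of all genes, and Mir124-2hg was lower in both, as were 24.0%. Of the other genes, 6 were lower in pair A and higher in pair B, a combination seen in 27.8% of all genes, and Ptbp2 had the opposite signs, as did 25.5%, with a log2 ratio in pair A that was 0.00 to 2 decimals. In TPM instead, 5 of these genes (Ptbp1, Rest, Rcor1, Ctdsp1 and Ctdsp2) had a higher value after the antagomir in both pairs, beside 32.3% of the genes tested, and TPM in NC-A are lowered by its lens transcripts.

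**Figure D2:**
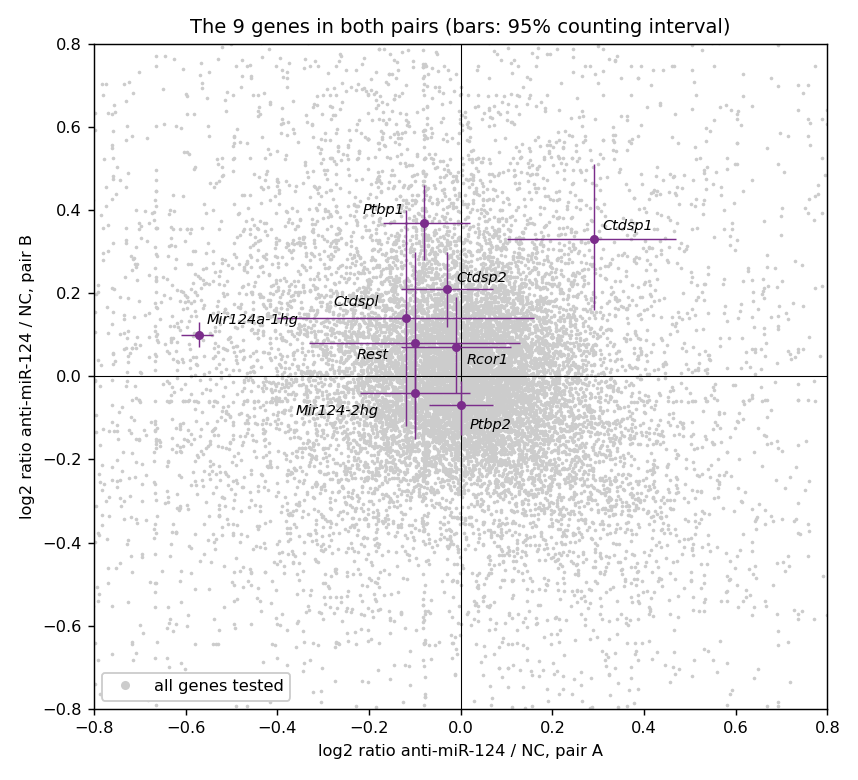
Log2 ratio of the anti-miR-124 to the NC library in pair A (x axis) and pair B (y axis), from normalised CPM with 1 count added, for the 9 genes (purple, with 95% intervals of counting error) and all genes tested (grey). Genes outside ±0.8 are not drawn. Ctdsp1 is the gene of the 9 in the upper right, at 0.29 and 0.33, and Mir124a-1hg lies farthest to the left, at -0.57.

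The host transcripts report on the loci that make the microRNA. Mir124a-1hg had 16235 counts in NC-A and 11587 in anti-A, and 16003 and 17924 in NC-B and anti-B. In normalised CPM these were 1010 and 679, and 886 and 951. Library anti-A stood apart from the other 3, and the groups overlapped. Markers of the pigment epithelium were highest in sum in the same library, at 175 TPM beside 84.0 to 130 TPM in the others. None of the 10 was at 0 in all libraries, and Tyrp1 and Lrat were highest in anti-B. The sum of amacrine, horizontal and ganglion cell markers was also highest in anti-A, at 1570 TPM beside 1160 to 1440 TPM. Of this sum, Nefl alone held 695 TPM in anti-A and 433 to 594 TPM in the others. The part of either set of markers in the value of Mir124a-1hg was not tested. The log2 ratio was -0.57 in pair A, with an interval of counting error from -0.61 to -0.54, and 0.10 in pair B, from 0.07 to 0.13, so both differences exceeded counting error and had opposite signs. Over the groups, the mean was 947 ± 86.1 CPM in the NC and 815 ± 192 CPM in the anti-miR-124 group (SD, n = 2 each), a log2FC of -0.22 with a 95% confidence interval from -0.58 to 0.15 (adjusted p = 0.989, edgeR). This value turned on single libraries. Without anti-A it was 0.005, and without anti-B it was -0.48, with an unadjusted p of 9.16e-05 and an adjusted p of 0.0962 by edgeR.

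Mir124-2hg, the host on chromosome 3 (chr3:17789921-17800071, plus strand), had 1138 and 1125 counts in pair A and 1291 and 1311 in pair B, in the order of NC and anti-miR-124. Its normalised CPM were 70.7 and 65.9, and 71.5 and 69.5. Both anti-miR-124 libraries lay below both NC libraries, as they did for 16.8% of all genes tested. The log2 ratios were -0.10 (-0.22 to 0.02) in pair A and -0.04 (-0.15 to 0.07) in pair B, each within counting error of 0. The log2FC was -0.07, with a confidence interval from -0.24 to 0.10 (adjusted p = 0.989, edgeR). The large difference of Mir124a-1hg in pair A was thus not shared in size by the host on chromosome 3. Per length, Mir124a-1hg was 4.81-fold and 3.48-fold above Mir124-2hg in NC-A and anti-A, and 4.18-fold and 4.61-fold in NC-B and anti-B. The Mir124a-2 hairpin row had a log2FC of 0.05 (SE 0.21).

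Other microRNA hosts and the microRNA machinery gave a frame for these values. Of 6 other host transcripts tested, none of them above a mean of 9.20 TPM over the libraries, none had an unadjusted p under 0.05 by edgeR, and 3 were lower and 1 higher in both pairs. The smallest p-values of these were for Mir22hg, at a log2FC of -0.42 (SE 0.22), and Mir133a-1hg, at 0.82 (SE 0.46) on 7 to 16 counts. Their median was -0.18, beside 0.001 over all genes, and it was 0.11 without NC-A and -0.02 without anti-B. Of 13 genes that make microRNAs or act with them, 5 were higher and 1 was lower in both pairs, none with an unadjusted p under 0.05, and the median was 0.02. Ago2, the Argonaute protein that can slice its target, had a log2FC of 0.16 (SE 0.08), and Ago1, another Argonaute, one of 0.12 (SE 0.08).

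Ptbp1 (chr10:79854432-79864435, plus strand) is the classic target of miR-124. It had 1676 and 1686 counts in NC-A and anti-A and 1754 and 2368 in NC-B and anti-B, which are 104 and 98.8, and 97.1 and 126 normalised CPM. Library anti-B was high, and the other 3 libraries lay close together. In pair A the log2 ratio was -0.08 (-0.17 to 0.02), and in pair B it was 0.37 (0.28 to 0.46), a difference beyond counting error in pair B. The log2FC over the groups was 0.16, with a confidence interval from -0.13 to 0.45 (adjusted p = 0.989, edgeR). Without anti-B it was -0.02, and without anti-A it was 0.32 (unadjusted p = 0.00649 and adjusted p = 0.216 by edgeR). The library in which Ptbp1 was high was also the one in which microglia markers were high. All 16 microglia markers were tested, and none was at 0 in all libraries. Of them, 10 were lower in pair A and higher in pair B, beside 27.8% of all genes, and the other 6 were higher in both pairs. All 16 were thus higher in pair B. Their median log2 ratio was -0.09 in A and 1.72 in B. Müller glia markers summed to 3880 TPM in anti-B and to 3050 to 3090 TPM in the others, with none of the 10 at 0. This difference lay mostly in Apoe and Vim, with log2 ratios of 0.94 and 0.87 in pair B, while the median of the 10 was 0.04 and Rlbp1, Glul and Car14 were at -0.16, -0.04 and -0.23. The part of either in the value of Ptbp1 was not tested. In a mixed tissue such as this one, more cells of a type and more RNA per cell cannot be told apart.

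Of the Ptbp1 gene, 3961 bases overlap Plppr3, a neuronal gene on the opposite strand, and the strand setting of the counting is not given in the sources used here, although the library kit keeps the strand. Plppr3 had log2 ratios of 0.02 and -0.11 in pairs A and B, and so did not share the difference of Ptbp1 in pair B. A short antisense row of 16 to 36 counts (ENSMUSG00000090860.1), which overlaps 498 bases, had 0.23 and 0.56, and E130317F20Rik, which overlaps 540 bases on the opposite strand, had 0.20 and -0.05.

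Ptbp2 (chr3:119718741-119783799, minus strand), the neuronal paralog, had 3344 and 3545 counts in pair A and 3771 and 3744 in pair B, in the order of NC and anti-miR-124. Its normalised CPM of 208, 208, 209 and 199 lay close together, with only anti-B slightly lower. The log2 ratio was 0.00 (-0.07 to 0.07) in pair A and -0.07 (-0.14 to -0.01) in pair B. The log2FC was -0.04, with a confidence interval from -0.21 to 0.14 (adjusted p = 0.989, edgeR).

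The ratio of Ptbp2 to Ptbp1 within a library needs no scaling between libraries. In TPM it was 1.69 and 1.78 in NC-A and anti-A and 1.82 and 1.34 in NC-B and anti-B. Ptbp2 was thus the more abundant paralog in every library, by the least in anti-B. On the log2 scale the mean ratio was 0.81 ± 0.08 in the NC and 0.63 ± 0.29 in the anti-miR-124 group (SD, n = 2 each), a difference of -0.18 (p = 0.667, exact permutation test, two-sided). With 2 libraries against 2, there are 6 ways to divide them and the smallest p possible is 0.333. Without anti-B, the difference was 0.022.

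Of 6 PTB family and partner genes tested, 3 had higher values in both pairs and 1 lower, beside 22.8% and 24.0% of all genes. In pair A, though, Ptbp3 and Raver1 of these 3, and Matr3, the 1 lower, were at 0.00 to 2 decimals. None of the 6 had an unadjusted p under 0.05 by edgeR, and the median log2FC was 0.13. The median log2 ratio was 0.00 in pair A and 0.16 in pair B. Raver1, a partner protein of PTBP1, gave a log2 ratio of 0.00 in pair A and 0.42 in pair B, much as Ptbp1 did, and Raver2 one of 0.23 and 0.13. Among 18 other splicing regulators, most of them neuronal, 2 were higher and 3 lower in both pairs, and none had an unadjusted p under 0.05. Another 10 were higher in pair A and lower in pair B, beside 25.5% of all genes, and 3 had the reverse signs. The median log2FC of the 18 was 0.00, with median log2 ratios of 0.07 and -0.15 in pairs A and B. Srrm4, the neuronal microexon regulator that is itself a target of REST, was at 115 TPM with a log2FC of 0.00 (SE 0.07). The smallest p-values were those of Esrp1, an epithelial splicing factor, at -1.21 (SE 0.53) on 33, 8, 17 and 15 counts, and of Khdrbs2, at -0.30 (SE 0.19). Of 17 genes that carry exons known to be under PTBP1 control, none had an unadjusted p under 0.05, with a median of 0.01. Nrcam, a neuronal adhesion molecule, was at -0.17 (SE 0.11). These are values of whole genes, and the use of single exons was not analysed here.

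**Figure D3:**
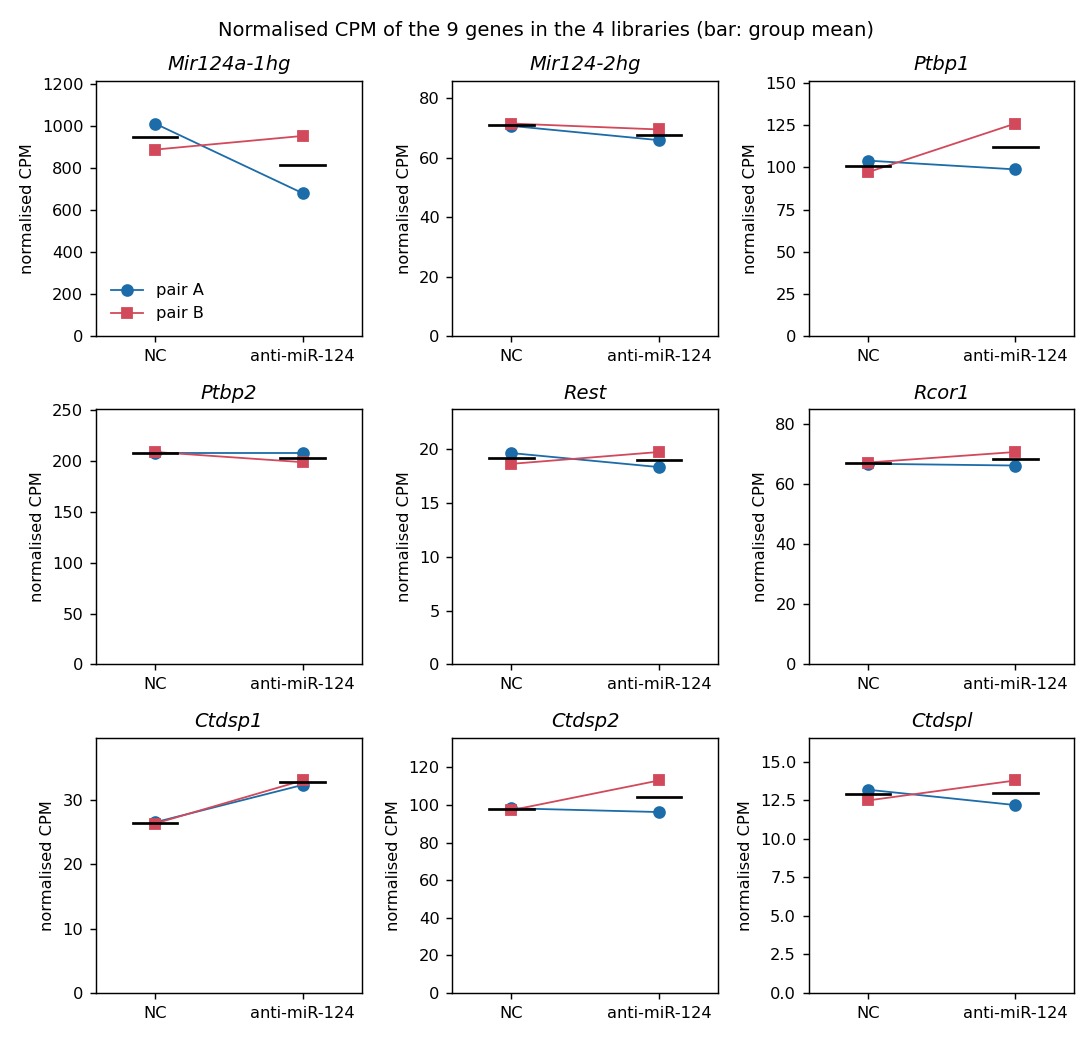
Normalised CPM of each of the 9 genes in each library by group, joined by lines within pair A (blue circles) and pair B (red squares), each axis starting at 0, with black bars at the group means. Both pairs of Ctdsp1 run upwards, from 26.5 to 32.3 and from 26.3 to 33.0 CPM, while the lines of Mir124a-1hg, Ptbp1, Rest, Rcor1, Ctdsp2 and Ctdspl run in opposite directions.

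Rest (chr5:77265494-77283697, plus strand) had 315 and 312 counts in NC-A and anti-A and 336 and 372 in NC-B and anti-B, or 19.6 and 18.3, and 18.6 and 19.7 normalised CPM. The anti-miR-124 libraries lay on either side of both NC libraries. The log2 ratio was -0.10 (-0.33 to 0.13) in pair A and 0.08 (-0.13 to 0.30) in pair B, both within counting error. The log2FC was -0.005, with a confidence interval from -0.25 to 0.24 (adjusted p = 1.0, edgeR), and its sign changed with the normalisation. Differences within that interval are not excluded by these libraries.

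Rcor1 (chr12:111038691-111115901, plus strand) had 1074 and 1129 counts in pair A and 1212 and 1331 in pair B, in the same order. Its normalised CPM of 66.7, 66.1, 67.1 and 70.6 overlapped between the groups, with anti-B highest. The log2 ratios were -0.01 (-0.13 to 0.11) and 0.07 (-0.04 to 0.19), and the log2FC was 0.03, with a confidence interval from -0.14 to 0.20 (adjusted p = 0.989, edgeR). Per length, Rcor1 was 2.58-fold to 2.74-fold above Rest in the 4 libraries.

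The partners of REST gave no call either. Among 18 genes of its corepressor complexes, Rcor1 included, 5 were higher and 1 was lower in both pairs, none at an unadjusted p under 0.05 by edgeR, and the median log2FC was 0.03. The gene lower in both pairs was Hdac2, a histone deacetylase, at -0.17 (SE 0.09). Ehmt2, the histone methyltransferase G9a, was at 0.13 (SE 0.07). Rcor2, the paralog of Rcor1, had log2 ratios of -0.16 and 0.24 in pairs A and B, and Rcor3 of 0.04 and -0.03. Among 13 genes of REST turnover and localisation, the 3 phosphatases included, 3 were higher and 5 lower in both pairs, and the 1 with an unadjusted p under 0.05 was Ctdsp1. Next by p came Dctn1, a dynactin subunit, at 0.15 (SE 0.07). Btrc, which encodes the F-box protein that marks REST for destruction, had log2 ratios of -0.09 and -0.06.

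The neuronal genes known to carry RE1, the DNA element that REST binds, split by pair. A pair here is a left-eye and a right-eye library of the same number, and shared animals are not established. Of 28 tested, 21 were higher in anti-A than in NC-A and lower in anti-B than in NC-B, beside the 25.5% of all genes, and none had the reverse signs. Their median log2 ratio was 0.21 in pair A and -0.25 in pair B, so that the median log2FC over the groups was 0.03. Nefl, a neurofilament gene, had ratios of 0.52 and -0.45, L1cam, an axonal adhesion molecule, 0.46 and -0.32, and Stmn2, a regulator of microtubules, 0.32 and -0.34. None had an unadjusted p under 0.05 by edgeR. The smallest p-values were those of Npas4, an activity-regulated transcription factor, at -0.88 (SE 0.38) on 12 to 33 counts, and of Chgb, a granin of secretory vesicles, at 0.16 (SE 0.08). The split was not particular to the RE1 genes. Of the 18 splicing regulators above, 10 were higher in pair A and lower in pair B, with median log2 ratios of 0.07 and -0.15. The markers of amacrine, horizontal and ganglion cells summed to 1160 and 1570 TPM in NC-A and anti-A and to 1440 and 1190 TPM in NC-B and anti-B, with none of the 13 at 0. Of these 13, 8 were higher in pair A and lower in pair B, and the other 5 (Slc6a9, Calb1, Lhx1, Onecut1 and Onecut2) were higher in both pairs. Of 8 bipolar cell markers, none at 0, 7 were higher in pair A and lower in pair B, with median log2 ratios of 0.17 and -0.27 and sums of 1530, 1750, 1800 and 1590 TPM in the order NC-A, anti-A, NC-B and anti-B. Gad1 and Nefl stand both among the RE1 genes and in the list of 13. Of the sum of the 13, Nefl alone held 449 and 695 TPM in NC-A and anti-A, and 594 and 433 TPM in NC-B and anti-B. TPM in NC-A are lowered by its lens transcripts. The part of these cells in the values was not tested. Rest itself had log2 ratios of -0.10 and 0.08 in pairs A and B, neither of them beyond counting error, with signs seen in 27.8% of all genes. A link between Rest and the RE1 genes was not tested.

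**Figure D4:**
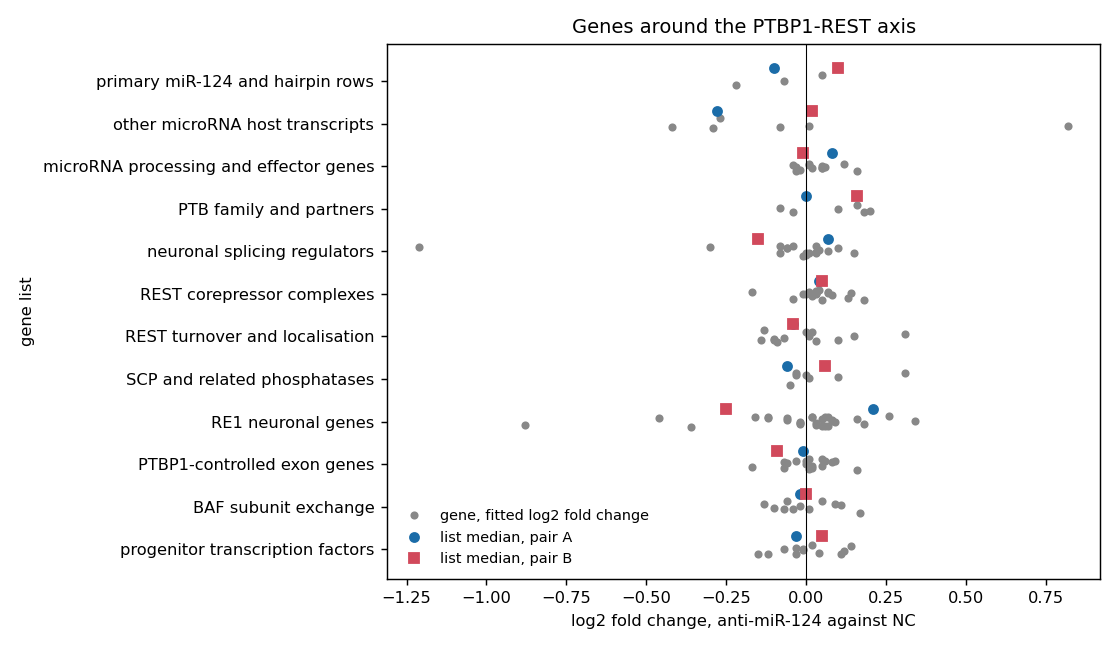
Fitted log2FC (anti-miR-124 against NC) of each tested gene (grey points) in 12 lists of genes around the axis, with the median log2 ratio of each list in pair A (blue circles) and pair B (red squares). The RE1 neuronal genes have the widest gap between the pairs among the lists drawn, 0.21 against -0.25, and the points of most lists lie near 0.

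Ctdsp1 (chr1:74391609-74397285, plus strand), which encodes SCP1, had the smallest p-value of the 9 genes. It had 426 and 551 counts in NC-A and anti-A and 474 and 623 in NC-B and anti-B, or 26.5 and 32.3, and 26.3 and 33.0 normalised CPM. Both anti-miR-124 libraries lay above both NC libraries, as they did for 16.5% of all genes tested, so the direction does not depend on which libraries are paired. The log2 ratio was 0.29 (0.10 to 0.47) in pair A and 0.33 (0.16 to 0.51) in pair B, each beyond counting error. The mean was 26.4 ± 0.141 CPM in the NC and 32.7 ± 0.548 CPM in the anti-miR-124 group (SD, n = 2 each), a fold of 1.24 with a 95% confidence interval from 1.09 to 1.41. The log2FC was 0.31 (SE 0.08), with an unadjusted p of 0.0065 and an adjusted p of 0.989 by edgeR. This is rank 75 among the genes tested, and the difference did not hold up to the correction over all of them. By DESeq2 the unadjusted p was 0.0547. Leaving out 1 library at a time gave log2FCs from 0.30 to 0.33, with an unadjusted p by edgeR of 0.0509 without NC-B. The 3 counts on the Mir26b hairpin inside the gene were all in anti-A. They are few beside its 551 counts, on a row of 85 bases beside 2776 for the gene.

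Ctdsp2 (chr10:126978717-126999975, plus strand), which encodes SCP2, had 1581 and 1643 counts in pair A and 1756 and 2123 in pair B, in the order of NC and anti-miR-124. In normalised CPM these were 98.2 and 96.2, and 97.2 and 113. As for Ptbp1, only anti-B was high. The log2 ratio was -0.03 (-0.13 to 0.07) in pair A and 0.21 (0.12 to 0.30) in pair B. The log2FC was 0.10, with a confidence interval from -0.12 to 0.32 (adjusted p = 0.989, edgeR), and it was -0.02 without anti-B. The microglia markers were high in the same library, as given above for Ptbp1, and their part was not tested here either.

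Ctdspl (chr9:118926536-119044119, plus strand), which encodes SCP3, had the fewest counts, 213 and 208 in pair A and 226 and 260 in pair B. Its normalised CPM of 13.2 and 12.2, and 12.5 and 13.8 overlapped between the groups. The log2 ratio was -0.12 (-0.40 to 0.16) in pair A and 0.14 (-0.12 to 0.40) in pair B. The log2FC was 0.01, with a confidence interval from -0.31 to 0.34 (adjusted p = 0.998, edgeR), the least precise value among the phosphatases.

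Set against each other within a library, the phosphatases kept their order in level. Ctdsp2 was 2.0-fold above Ctdsp1 per length in both NC libraries, and 1.61-fold and 1.84-fold above it in anti-A and anti-B. Ctdsp1 was 3.38-fold and 3.54-fold above Ctdspl in NC-A and NC-B, and 4.47-fold and 4.05-fold in anti-A and anti-B. Both ratios showed Ctdsp1 relatively higher in the anti-miR-124 libraries, without any scaling between libraries. They share the counts of Ctdsp1 given above, and so are not separate support. Each had p = 0.333 by the exact permutation test, the smallest p possible with 2 libraries against 2. The ratio of Ctdsp2 to Ctdspl was 6.77 and 7.08 in NC-A and NC-B, and 7.20 and 7.44 in anti-A and anti-B. Of the 7 SCP and related phosphatase genes tested, Ctdsp1 was the 1 with an unadjusted p under 0.05 by edgeR and the 1 that was higher in both pairs, and 2 (Ctdp1 and Ublcp1) were lower in both. Ctdsp2 had the next smallest p.

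In neurons, BAF chromatin-remodelling complexes exchange subunits, a step in which miR-124 is known to repress the progenitor subunit Actl6a (BAF53a). Of 11 genes of this exchange, 2 were higher in both pairs and 4 were lower, and the median log2FC was -0.02. Actl6a was at -0.10 (SE 0.07) and the neuronal Actl6b at -0.02 (SE 0.08). Bcl7a, another subunit, had an unadjusted p of 0.0462 by edgeR at a log2FC of 0.17 (SE 0.07, adjusted p = 0.989), with log2 ratios of 0.12 and 0.23, and Phf10 was at -0.13 (SE 0.07). Of 12 progenitor and proliferation genes, 3 had higher values in both pairs and 2 lower, none with an unadjusted p under 0.05, and the median was -0.01. Sox2, a transcription factor of progenitors and Müller glia, was at -0.12 (SE 0.08).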

How the data were processed

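Reads were counted on genes in 4 libraries of mouse retina. Per the labels, the RNA was extracted with TRIzol and the libraries were made with a kit that keeps the strand. Raw counts of reads on each gene were deposited by the authors with the gene's position and length. The table also holds 4 columns of RPKM, which were not used. The submitters' processing notes name HISAT2 and mm9. The positions match GRCm38, since 99.8% of 36834 symbols shared with its RefSeq annotation overlapped in position, so GRCm38 is named here. The counting tool is not given in the sources used here. TPM were computed from counts and lengths. SE is the standard error of a log2FC.

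The 9 genes and the 13 gene lists and 9 marker lists were chosen with earlier results of these data known. All 9 genes are named, and of each of the 13 gene lists the 2 genes with the smallest p and any with an unadjusted p under 0.05. Marker lists are given by sums and counts. The values of 2 genes that this rule names are not reported here. Others (Ptbp3, Matr3, Rcor2, Rcor3, Btrc, Srrm4, Actl6a, Actl6b, Nefl, L1cam, Stmn2, Ctdp1, Ublcp1 and the single markers) were named after their values were seen. Groups were compared with edgeR 4.0.16 (R 4.3.3): quasi-likelihood test, TMM, its filter on low counts, no covariate, both directions, Benjamini-Hochberg adjustment over 17766 genes, threshold 0.05. The biological coefficient of variation was 14.5%. Pair ratios used normalised CPM with 1 count added, and their 95% intervals come from exact (Clopper-Pearson) binomial intervals of the counts, which cover counting error only. On simulated data over 17807 genes, 100% of 4-fold and 85% of 2-fold differences were called, with 15 wrong calls. The simulated spread depended only on the level of a gene, and changes were set only in well-counted genes. Differences between single libraries, such as those in lens or microglia transcripts, were not simulated. These rates thus do not give the power in the real libraries, where none of 19 lens genes tested was called at a median log2FC of -7.64. DESeq2 1.42.0 was an alternative. No libraries were duplicates (chi-square per gene of 26.9 between the NC and 10.0 between the anti-miR-124 libraries). Seed matches of miR-124 were not analysed here.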

Additional observations from a re-analysis of the deposited data

How the results depend on the processing

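In every setting planned, 0 of the 9 genes passed an adjusted p of 0.05. Over all genes, the count of such genes was 0 with edgeR, 379 with no filter on low counts, 33 with DESeq2, and 0 to 256 when 1 library was left out (0 without NC-A and 256 without anti-A, 57 without NC-B and 12 without anti-B). The cause of these differences was not tested. With the shared number as a replicate block the count stayed at 0. Deviations of same-numbered libraries had a correlation of -0.17, so pairing was not taken from them. With the pairing crossed, a setting chosen after seeing the data, the count was 160. By TPM, 5 of the 9 genes had 1 sign in both pairs, against 2 by normalised CPM. The difference in the log2 ratio of Ptbp2 to Ptbp1 was -0.184, and ran from -0.39 to 0.022 when 1 library was left out.

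Of 108 log2FCs of the 9 genes under 12 alternatives, 96 kept their direction and 12 reversed. That of Rest was 0.003 with total counts, 0.002 with no filter and 0.001 without the lens genes, and -0.057 to 0.048 when 1 library was left out. The other ranges over left-out libraries were -0.476 to 0.005 for Mir124a-1hg, -0.105 to -0.032 for Mir124-2hg, -0.022 to 0.32 for Ptbp1, -0.069 to 0.001 for Ptbp2, -0.012 to 0.077 for Rcor1, 0.297 to 0.326 for Ctdsp1, -0.017 to 0.205 for Ctdsp2 and -0.074 to 0.10 for Ctdspl. With no filter, Mir124a-1hg had an unadjusted p of 0.00073 and an adjusted p of 0.0587 by edgeR. The unadjusted p of Ctdsp1 was under 0.05 in 11 of 13 settings, from 0.00491 to 0.0547, and its adjusted p ran from 0.27 to 1.0. With 2 libraries a group, the intervals given above are wide, and they are not limits of detection. The interval of Ctdsp1 lay above 0, and its adjusted p in the main fit was still 0.989 by edgeR.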

Other observations

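The genes whose normalised CPM followed the host transcripts most closely over the 4 libraries were taken from 12059 genes with a mean of at least 100 counts, by the distance between log2 values centred on each gene's mean. For Mir124a-1hg, whose centred values were 0.21 and -0.36 in NC-A and anti-A and 0.02 and 0.13 in NC-B and anti-B, the 5 nearest were ENSMUSG00000107021.1, a transcript row of chromosome 5 with no symbol, at a distance of 0.00682, then Ddx31 at 0.0341, Clasrp at 0.0413, Glb1l at 0.0608 and the long non-coding Firre at 0.0614. For Mir124-2hg, the 5 nearest were Stx3 at 0.00847, Arv1 at 0.0118, A730020E08Rik, AW549877 and Fubp1. These distances are a description over 4 libraries.

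A transcript row inside an intron of Ptbp2, on the same strand (ENSMUSG00000106099.1, annotated as sense intronic), had 561 and 495 counts in NC-A and anti-A and 706 and 588 in NC-B and anti-B. The log2 ratios were -0.26 and -0.33, and the log2FC was -0.30 (SE 0.09), with an unadjusted p of 0.0169 by edgeR that does not hold up to the correction over all genes. It was singled out after its values were seen. Ptbp2 itself had ratios of 0.00 and -0.07.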
